A study of Mus musculus with 4 samples.

Results

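The collagen genes of the mouse were followed across the cells of the developing molar. Members were all features whose symbol was Col, a number, the letter a and a number, which gave 44 of the 32285 genes in the count tables. Each of the 44 genes had UMI counts (unique molecular identifiers, 1 per captured transcript molecule) in every library. The 4 single-cell RNA-seq libraries came from wild-type mice (genotype label WTB6) and held molar tooth organs of the maxillary or the mandibular jaw, from embryos (E15.5) or newborn pups (P1). Each library pooled 6 tooth organs, no group had a second library, and the labels give the embryonic age as E15 where the protocol gives E15.5, and the pups as P1 where the protocol gives P0/P1. All comparisons are therefore between single libraries, no test between groups was made, and the intervals below are exact 95% intervals that cover counting error only.

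Depth differed between libraries. The tables held 10885 barcodes and 109723360 UMIs for E15.5 maxillary, 7947 barcodes and 86659227 UMIs for E15.5 mandibular, 18707 barcodes and 128812956 UMIs for P1 maxillary, and 19401 barcodes and 139873101 UMIs for P1 mandibular. After barcodes under 1000 UMIs were left out, and after every barcode also listed in P1 maxillary was left out of P1 mandibular, 10073, 6911, 17040 and 10120 barcodes were used in that order. Their median UMI counts were 9596, 11234, 4019 and 10390.

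The P1 libraries were not separate sets of cells. They shared 7131 barcodes, 38.1% of the maxillary and 36.8% of the mandibular barcodes, against 28 to 70 for every other pair of libraries. A shared barcode had a median of 4.21-fold more UMIs in the maxillary than in the mandibular table. Of the P1 maxillary cells, shared barcodes made up 96.9% of the dental papilla-like, 95.3% of the odontoblast-like and 95.4% of the ameloblast-like cells, but 0.366% of the neuron-like and 0.185% of the airway-like cells. Dspp, which encodes the dentin phosphoprotein precursor, stood at 84.1 CPM (a gene's UMI counts scaled to a common total) in P1 maxillary and at 3.28 CPM without the shared barcodes, and Pomc, a pituitary hormone precursor, at 44.8 and 174 CPM. Which jaw the shared cells came from cannot be told apart from these files, so many stage and jaw results and levels are also given without them. Where no such value stands beside a papilla-like, odontoblast-like or ameloblast-like value of P1 maxillary, chain ratios included, that value rests on shared barcodes. The shared part was large in other P1 maxillary classes too. Shared barcodes held 16929040 of the 18075816 UMIs of dental epithelium-like cells and 6008503 of the 7490519 UMIs of fibroblast-like cells. The 6690 barcodes left out of P1 mandibular held 0.824% collagen UMIs.

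Collagens are extracellular proteins built from 3 chains wound into a triple helix. Fibrillar collagens such as types I and III assemble into the fibers of dentin, bone, tendon and loose connective tissue. Type IV collagen forms the sheet of basement membranes, on which epithelium and vessels rest, type VI forms beaded filaments, type VII anchors skin and oral epithelium to the tissue beneath it, and the fibril-associated collagens (FACIT) sit on the surface of fibers. In the tooth, odontoblasts of mesenchymal origin secrete a dentin matrix that is mostly type I collagen, and ameloblasts of epithelial origin secrete an enamel matrix that contains little collagen.

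Cells were grouped into classes by clustering without the collagen genes, and a class was called "X-like" by markers that include no collagen. All 7 odontoblast markers stood at 10 CPM or more in the odontoblast-like cells of both P1 libraries, and 4 of the 7 ameloblast markers did so in the ameloblast-like cells of both, where Amelx reached 33781 and 45231 CPM and Amtn had no UMI in P1 maxillary. Of the 8 osteoblast markers, 6 did so in the osteoblast-like cells of both maxillary libraries and all 8 in both mandibular ones. In E15.5 maxillary Runx2 made up 1610 of the 2247 CPM of these markers. Its osteoblast-like sub-clusters, of 298 and 181 cells, each had only 4 of the 8 at 50 CPM, so this name is uncertain. Fabp7 was the only papilla marker without a UMI in the 76 papilla-like cells of E15.5 maxillary, Matn1 had none in the 36 chondrocyte-like cells of E15.5 mandibular, and the chondrocyte-like class held under 50 cells in each library that had it. Of the 6 follicle markers, 4 reached 10 CPM in the follicle-like cells of P1 mandibular and all 6 in the other libraries. In P1 maxillary 1097 of the 1441 follicle-like cells were not shared, against 98 of the 3211 papilla-like cells. Whether follicle-like cells lay around the tooth germ was not tested. Each library was clustered on its own, so no cluster spans libraries. In the levels, counts and ratios of every class, differences between libraries cannot be told apart from differences between clusters. This limit of separate clusters is repeated below for 4 classes: osteoblast-like, other mesenchyme, oral epithelium-like and immune-like cells.

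The share of all UMIs that came from collagen genes separated the classes by more than 10-fold. Tendon-like cells had 2.28% (E15.5 maxillary), 1.89% (E15.5 mandibular) and 5.45% (P1 mandibular). Odontoblast-like cells, found at P1 only, had 1.88% in P1 maxillary (1.44% in the 25 cells that were not shared) and 3.24% in P1 mandibular. Fibroblast-like cells had 2.16%, 2.27%, 2.17% and 3.30% in E15.5 maxillary, E15.5 mandibular, P1 maxillary and P1 mandibular, an order kept throughout this text. Their P1 maxillary value was 1.69% without the shared barcodes. P1 mandibular was the highest library in these fiber-rich classes. The dental papilla-like cells, the loose mesenchyme from which odontoblasts arise, stood lower, at 0.582% in E15.5 maxillary, 0.761% in P1 maxillary (0.616% in the 98 cells that were not shared) and 0.831% in P1 mandibular.

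Epithelial classes had far less. Ameloblast-like cells had 0.247% in P1 maxillary and 0.279% in P1 mandibular, but 0.411% (0.321% to 0.518%) in the 11 of P1 maxillary that were not shared. Dental epithelium-like cells had 0.274% in E15.5 maxillary, 0.232% in P1 maxillary (0.157% without the shared barcodes) and 0.244% in P1 mandibular. Erythroid-like cells, which make no collagen, gave the background of free RNA in droplets, at 0.0278%, 0.0203%, 0.0545% and 0.101%. This background was highest in P1 mandibular, the library with the highest shares in the fiber-rich classes, and its part in those shares was not tested. The mesenchyme-like classes together had 1.60%, 1.81%, 1.16% and 2.001%, with 1.36% in P1 maxillary without the shared barcodes. A lower value at P1 in one jaw and a higher one in the other left no common direction between stages.

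**Figure D1:**
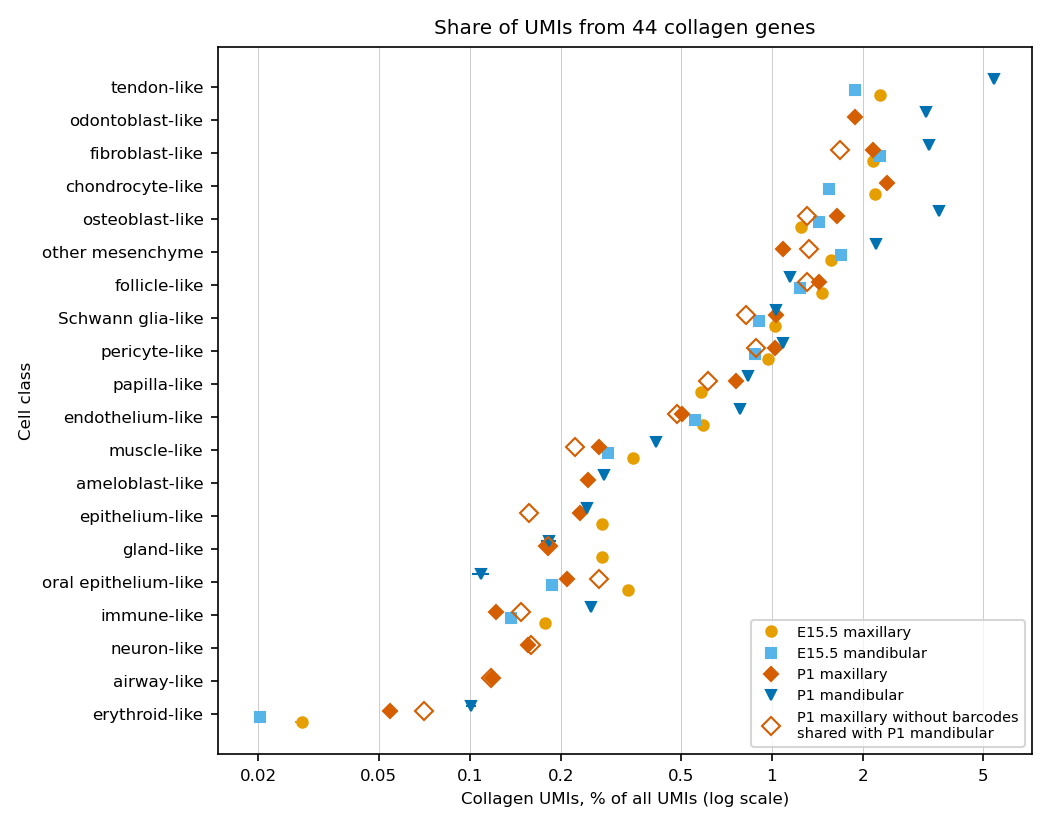
Share of UMIs from the 44 collagen genes (x axis, percent, log scale) in each cell class (y axis), 1 point per library, open diamonds for P1 maxillary without the barcodes it shares with P1 mandibular (classes with 50 cells left). Bars are exact binomial 95% intervals, mostly smaller than the points. By the mean over libraries, tendon-like, odontoblast-like and fibroblast-like cells are at the top and erythroid-like cells, at 0.0203% to 0.101%, at the bottom. Osteoblast-like cells of P1 mandibular (3.57%) and chondrocyte-like cells of P1 maxillary (2.39%) were above the odontoblast-like and fibroblast-like cells of the same library.

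Almost every mesenchymal cell held a collagen molecule. With each cell thinned to 1000 UMIs, at least 1 collagen UMI was present in 99.8%, 100%, 99.6% and 99.8% of mesenchyme-like cells. The dental and oral epithelium-like cells reached 80.6%, 66.2%, 71.5% and 79.2%, and without thinning 99.0%, 96.5%, 90.7% and 97.9%. Erythroid-like cells, the background, had 23.3%, 24.2%, 16.9% and 29.3%, and without thinning 79.5%, 71.6%, 31.0% and 79.8%. The median UMI counts behind these shares were 10004.5, 13596, 5548 and 12025 for mesenchyme-like and 7901, 7379, 1979 and 6861.5 for erythroid-like cells, and no cell was below the thinning depth.

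Levels are CPM of the summed UMIs of a class, without a correction for gene length. Between genes they compare captured UMIs, as do family shares and chain ratios. Capture may differ from gene to gene, which was not tested, so these values are not ratios of molecule numbers in the cell. The highest class of a gene is the one with the highest mean over the libraries that hold it, and since some classes were found at 1 stage or in some libraries only, these means do not cover the same libraries. Over all cells of a library, 35, 34, 35 and 36 of the 44 collagens reached 10 CPM, and 16, 13, 17 and 16 reached 100 CPM. In the mesenchyme-like classes together, 12 collagens stood at 100 CPM or more in all 4 libraries. In 13 of the 20 classes, the most abundant collagens were Col1a1, Col1a2 and Col3a1, and these 3 genes also led in erythroid-like cells, with mean levels of 146 CPM for Col1a1, 101 CPM for Col3a1 and 91.9 CPM for Col1a2. The 7 classes with another gene among their first 3 were ameloblast-like, chondrocyte-like, endothelium-like, epithelium-like, muscle-like, odontoblast-like and pericyte-like cells. The fewest collagens at 10 CPM or more, apart from erythroid-like cells, were 15 in the immune-like cells of E15.5 mandibular.

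**Figure D2:**
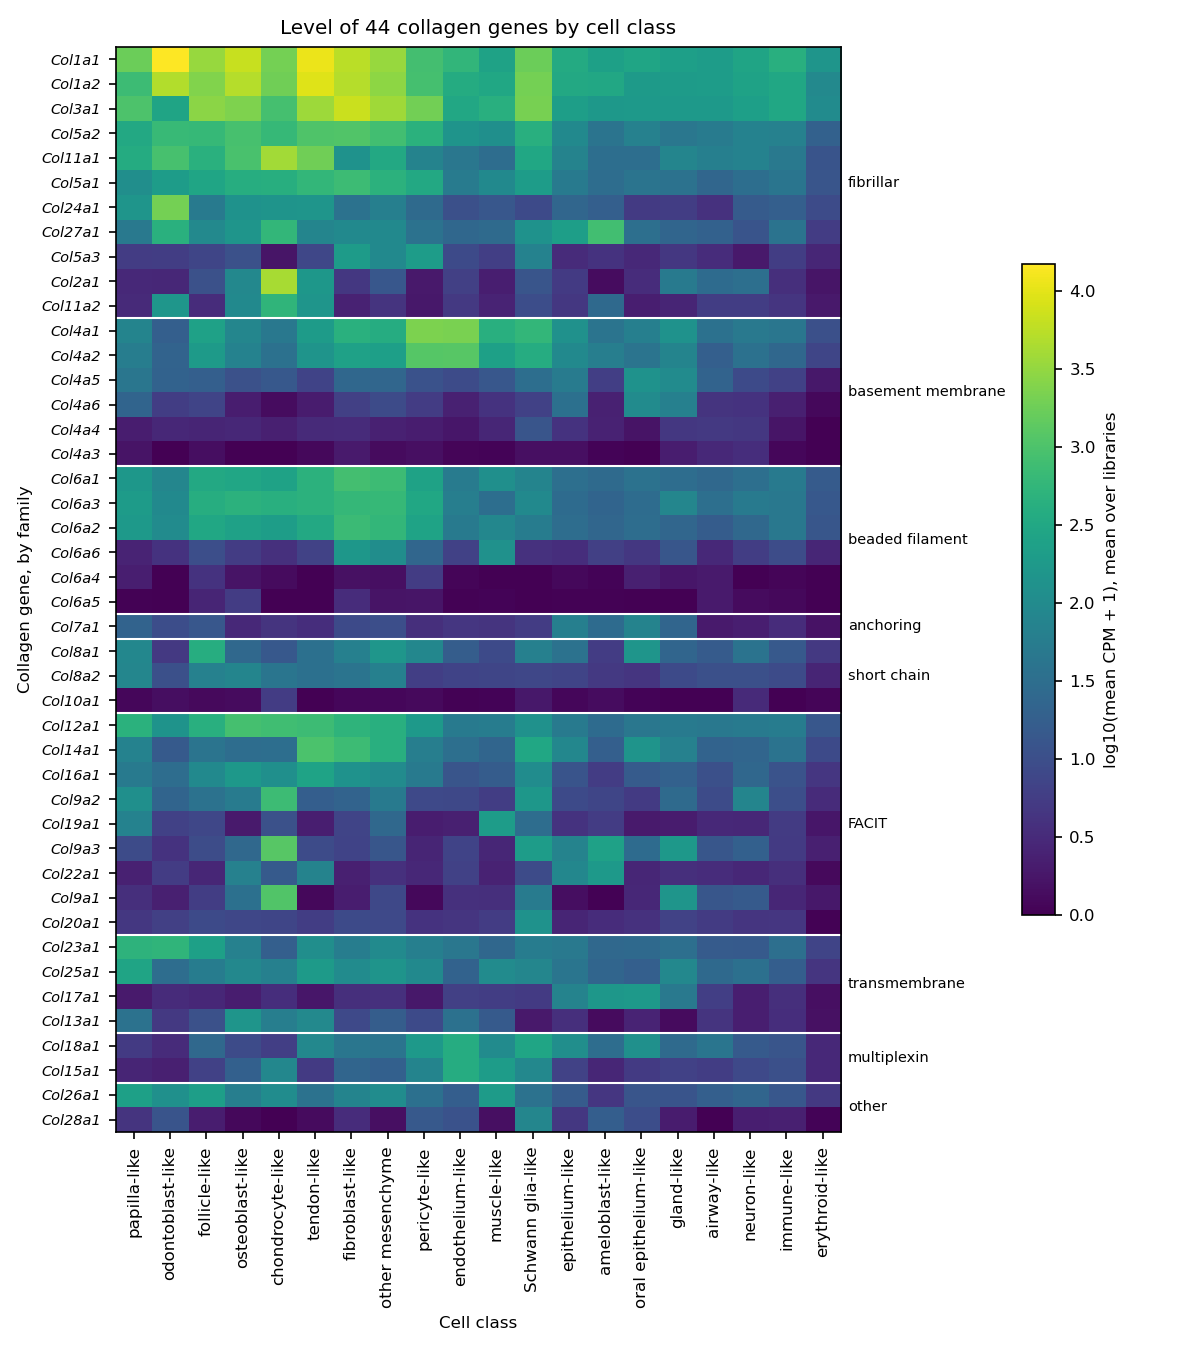
Level of the 44 collagen genes (rows, grouped by family) in the 20 cell classes (columns), as log10 of the mean CPM over libraries plus 1. The fibrillar genes Col1a1, Col1a2 and Col3a1 form the bright rows, and single bright cells mark genes high in 1 class, such as Col24a1 in odontoblast-like and Col2a1 in chondrocyte-like cells.

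Among the 11 fibrillar genes, Col1a1 and Col1a2 encode the chains of type I collagen, the main protein of dentin and bone. Col1a1 stood at 10263 CPM (interval 10200 to 10326) in the odontoblast-like cells of P1 maxillary and at 19424 CPM (19328 to 19520) in those of P1 mandibular. The 25 odontoblast-like cells of P1 maxillary that were not shared gave 7341 CPM. Tendon-like cells had 7046, 5802 and 20157 CPM in E15.5 maxillary, E15.5 mandibular and P1 mandibular. Osteoblast-like cells had 3143, 4466, 5123 and 13878 CPM, and papilla-like cells 1084, 1796 and 2313 CPM in E15.5 maxillary, P1 maxillary and P1 mandibular, with 1356 CPM in the 98 unshared cells of P1 maxillary. P1 mandibular was the highest library in each of these 4 classes, and its erythroid-like cells also had the highest Col1a1, 337 CPM against 65.8, 53.9 and 128 CPM in the other libraries.

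Col3a1 encodes type III collagen, a partner of type I in soft connective tissue. It was the most abundant collagen of fibroblast-like cells, with 5820.4, 5998, 5921 and 10012 CPM. Odontoblast-like cells stood far lower, at 237 CPM (227 to 247) in P1 maxillary and 299 CPM (287 to 311) in P1 mandibular, although papilla-like cells of the same libraries had 857 and 1126 CPM. Col3a1 was thus lower in odontoblast-like than in papilla-like cells, while Col1a1 went the other way in both libraries. The erythroid-like level of Col3a1 was 97.5 and 199 CPM in these libraries.

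Col24a1, a minor fibrillar collagen, was the gene that most marked the odontoblast-like cells. It stood at 1902 CPM (1875 to 1929) in P1 maxillary and 2084 CPM (2053 to 2116) in P1 mandibular, and at 2150 CPM in the 25 unshared maxillary cells. Papilla-like cells had 203 CPM (199 to 207) and 244 CPM (238 to 249) in the same libraries, and 2 UMIs in the 76 papilla-like cells of E15.5 maxillary. Its mean over the P1 libraries was 13.3-fold above the mean of papilla-like cells, the next class, which includes the low E15.5 value. After thinning to 1000 UMIs per cell, 63.7% (59.5% to 67.8%) and 73.7% (69.4% to 77.7%) of odontoblast-like cells had a Col24a1 UMI, against 0.444% and 0.909% of erythroid-like cells, and without thinning 96.3% and 99.1% had one. The gene starts at chr3:145292472 and ends at 145552011 on the plus strand (mm10). Its promoter window, the 250 bases before and 50 after the RefSeq start (GRCm38.p6, chr3:145292222-145292521, plus strand), is shown because the gene separated these cells most. It holds no CCAAT box, no GC box (GGGCGG) and no TATA motif (TATAA) on either strand.
Col24a1: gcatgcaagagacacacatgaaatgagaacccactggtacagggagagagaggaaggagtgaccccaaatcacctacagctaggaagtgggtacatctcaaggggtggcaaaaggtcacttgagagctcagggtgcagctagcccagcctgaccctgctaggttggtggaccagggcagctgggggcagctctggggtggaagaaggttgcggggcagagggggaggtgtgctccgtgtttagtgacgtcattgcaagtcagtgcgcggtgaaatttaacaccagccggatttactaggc

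Col2a1 and Col11a1 encode chains of cartilage fibers. Col2a1 stood at 2669.6, 2671 and 7164 CPM in the chondrocyte-like cells of E15.5 maxillary, E15.5 mandibular and P1 maxillary, and its mean was 25.9-fold above that of tendon-like cells, the next class. Only 59.0% of the 39 chondrocyte-like cells of E15.5 maxillary had a Col2a1 UMI without thinning, against 100% of the 36 in E15.5 mandibular and 97.7% of the 44 in P1 maxillary. The leading genes of the E15.5 maxillary cells held bone genes (Ifitm5, Ibsp) beside cartilage genes (Snorc, Hapln1), and 5 osteoblast markers beside 6 chondrocyte markers reached 50 CPM, so its name is uncertain. In the E15.5 mandibular cells 4 osteoblast beside 5 chondrocyte markers did so. At a clustering resolution of 0.5 the E15.5 mandibular group led by Lgals3, Hapln1 and Acan was named osteoblast-like, so this name is uncertain too. The E15.5 maxillary cells also had the most Col1a1, at 3889 CPM against 1329.6 and 706 CPM. Col11a1 stood at 3648, 3000.0 and 4939.9 CPM in the same cells and also at 735 and 1055 CPM in the P1 odontoblast-like cells. Col11a2 was lower, at 389.9, 489.6 and 739.6 CPM in chondrocyte-like and 105 and 199.7 CPM in odontoblast-like cells.

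The other fibrillar genes were spread more evenly. Col5a2, a chain of the type V collagen that is mixed into type I fibers, was highest in fibroblast-like cells at 877, 1085, 991 and 1418 CPM, and its second class, tendon-like, came within 1.05-fold of it. Col5a1 had 650, 673, 658 and 861 CPM in fibroblast-like cells. Col5a3 had 110.4, 63.0, 228 and 393 CPM in pericyte-like and 154, 222, 117 and 296 CPM in fibroblast-like cells, with means within 1.006-fold of each other. Col27a1 was the exception: this fibrillar gene, known from cartilage, was the most abundant collagen of ameloblast-like cells, at 856 CPM (824 to 889) in P1 maxillary and 768 CPM (750 to 786) in P1 mandibular. A Col27a1 UMI was present in 56.8% and 55.9% of thinned ameloblast-like cells, against 0.533% and 0.455% of erythroid-like cells, and without thinning in 99.2% and 97.9% of ameloblast-like cells. The 11 unshared ameloblast-like cells of P1 maxillary gave 46 UMIs, or 2664 CPM.

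Type IV collagen genes are the 6 of the basement membrane group. Of these, Col4a1 and Col4a2 were highest in vessel classes and Col4a5 and Col4a6 in epithelium. Col4a1 and Col4a2 encode the chains found in nearly all basement membranes. Col4a1 stood at 2014, 1670.3, 2746 and 2634 CPM in pericyte-like and 1772, 2282, 2173 and 2241 CPM in endothelium-like cells. Col4a2 stood at 1014, 881, 1357 and 1468 CPM in pericyte-like and 981, 1257, 1204 and 1434 CPM in endothelium-like cells. The ranges of the 2 classes overlapped for both genes. The basement membrane group made up 46.8%, 63.9%, 67.2% and 47.1% of the collagen UMIs of endothelium-like cells, and their fibrillar share was 31.7%, 13.7%, 12.6% and 36.4%.

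Col4a5 and Col4a6, whose chains form a second type IV network known from epithelial basement membranes, were highest in oral epithelium-like cells. Col4a5 had 182, 65.3, 198 and 92.5 CPM and Col4a6 146, 44.8, 154 and 67.9 CPM there. Both mandibular libraries were lower than both maxillary libraries. In dental epithelium-like cells, Col4a5 had 126 CPM in E15.5 maxillary and 11.1 CPM in P1 maxillary (16.6 CPM without shared barcodes), with 19.7 CPM in P1 mandibular, and Col4a6 had 87.2, 3.93 (11.3 without shared barcodes) and 9.99 CPM in the same order. Papilla-like cells showed the other order: Col4a6 had no UMI in the 76 cells of E15.5 maxillary, which allows up to 4.08 CPM, and 35.7 and 27.6 CPM in P1 maxillary and P1 mandibular. Col4a3 and Col4a4, chains known from the kidney filter, stayed low: Col4a4 peaked in Schwann glia-like cells at 9.65, 12.1, 9.62 and 15.3 CPM, and Col4a3 had 158 UMIs in all libraries together.

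The type IV genes lie in pairs that face away from each other. In mm10, Col4a1 (chr8:11198423-11312826, minus strand) and Col4a2 (chr8:11312805-11449287, plus strand) overlap by 22 bases at their 5′ ends. Col4a6 (chrX:141165403-141474076, minus strand) and Col4a5 (chrX:141475385-141689234, plus strand) are 1308 bases apart, and Col4a4 and Col4a3 71 bases apart on chromosome 1. The promoter windows of the first 2 pairs are shown because the genes of each pair were high in the same classes. Capitals mark the CCAAT box, the GC box (GGGCGG) and the TATA motif (TATAA), read on either strand, so their reverse complements are in capitals too. RefSeq (GRCm38.p6) had windows for 35 of the 44 collagen genes. The windows lie at chr8:11312777-11313076 (Col4a1, minus strand), chr8:11312555-11312854 (Col4a2, plus strand), chrX:141474027-141474326 (Col4a6, minus strand) and chrX:141475169-141475468 (Col4a5, plus strand).
Col4a1: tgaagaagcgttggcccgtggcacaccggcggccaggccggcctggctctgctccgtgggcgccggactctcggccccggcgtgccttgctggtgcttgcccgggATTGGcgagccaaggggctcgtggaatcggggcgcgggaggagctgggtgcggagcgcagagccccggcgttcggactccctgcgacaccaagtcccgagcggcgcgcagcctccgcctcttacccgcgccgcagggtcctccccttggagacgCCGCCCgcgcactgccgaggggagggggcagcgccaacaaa
Col4a2: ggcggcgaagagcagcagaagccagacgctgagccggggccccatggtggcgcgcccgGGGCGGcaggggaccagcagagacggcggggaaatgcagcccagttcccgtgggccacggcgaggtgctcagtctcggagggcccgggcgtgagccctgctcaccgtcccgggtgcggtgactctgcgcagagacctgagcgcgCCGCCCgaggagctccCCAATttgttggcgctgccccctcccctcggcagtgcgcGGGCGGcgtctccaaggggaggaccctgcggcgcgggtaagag
Col4a6: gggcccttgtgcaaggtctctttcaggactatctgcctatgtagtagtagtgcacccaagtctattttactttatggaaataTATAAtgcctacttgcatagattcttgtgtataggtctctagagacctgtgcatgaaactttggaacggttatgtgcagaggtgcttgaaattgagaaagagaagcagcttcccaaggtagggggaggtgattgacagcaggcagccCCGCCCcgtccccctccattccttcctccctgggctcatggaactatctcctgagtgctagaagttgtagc
Col4a5: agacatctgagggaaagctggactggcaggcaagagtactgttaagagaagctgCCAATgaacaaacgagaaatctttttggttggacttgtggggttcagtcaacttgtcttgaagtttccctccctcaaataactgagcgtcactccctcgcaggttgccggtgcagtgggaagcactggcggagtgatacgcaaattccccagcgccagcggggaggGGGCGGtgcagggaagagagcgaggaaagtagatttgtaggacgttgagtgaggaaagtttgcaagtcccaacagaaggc
The Col4a1 and Col4a2 windows overlap, so part of each reads as the reverse complement of the other. They held 74.0% and 73.7% G and C, with 37 and 33 CpG sites, against 48.3% and 52.7%, with 3 and 11 CpG sites, for Col4a6 and Col4a5. GGGCGG occurred in all 4 windows and in 35.7% of the 32851 RefSeq windows of the same length, CCAAT in 3 of the 4 and in 37.4%, and TATAA in the Col4a6 window and in 24.9%. These are matches of letters and do not show that a factor binds.

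Chain ratios compared genes whose products join in 1 trimer. Type I collagen is mostly built from 2 chains of Col1a1 and 1 of Col1a2. The UMI ratio of Col1a1 to Col1a2 was 3.57 (3.52 to 3.62) in the odontoblast-like cells of P1 maxillary and 2.85 (2.82 to 2.88) in those of P1 mandibular. Papilla-like cells had 1.77 (1.57 to 1.99), 2.91 (2.87 to 2.95) and 2.50 (2.47 to 2.54) in E15.5 maxillary, P1 maxillary and P1 mandibular. No other mesenchymal class reached these values: follicle-like cells had 1.42, 1.49, 1.32 and 1.476, osteoblast-like cells 1.41, 1.29, 1.32 and 1.27, and fibroblast-like cells 1.23, 1.09, 1.08 and 1.014. Schwann glia-like cells, at 0.88, 0.91, 0.79 and 0.86, had more Col1a2 than Col1a1 in every library.

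The ratio of Col4a1 to Col4a2 was 1.81, 1.82, 1.80 and 1.56 in endothelium-like cells and 1.99, 1.90, 2.02 and 1.79 in pericyte-like cells. It was below 1 in ameloblast-like cells, at 0.56 (0.43 to 0.72) in P1 maxillary and 0.76 (0.67 to 0.86) in P1 mandibular. Odontoblast-like cells had 0.63 (0.51 to 0.79) in P1 maxillary but 1.04 (0.84 to 1.31) in P1 mandibular. In dental epithelium-like cells it was 1.98 (1.71 to 2.28) in E15.5 maxillary and 1.13 (1.06 to 1.20) and 1.22 (1.15 to 1.29) in P1 maxillary and P1 mandibular. The intervals of the stages did not overlap, but the P1 maxillary value rests mostly on shared barcodes. Erythroid-like cells had 1.52 (0.94 to 2.47), 2.20 (1.50 to 3.28), 0.87 (0.50 to 1.51) and 1.86 (1.08 to 3.29), wide intervals that rest on 22 to 88 UMIs per gene.

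The other pairs differed by class as well. Col4a5 to Col4a6 was 1.24, 1.46, 1.29 and 1.36 in oral epithelium-like cells and 1.82 and 1.95 in the papilla-like cells of P1 maxillary and P1 mandibular. Col11a1 to Col11a2 was 9.36, 6.13 and 6.68 in the chondrocyte-like cells of the 3 libraries that had them and 6.97 and 5.28 in P1 odontoblast-like cells. Col5a1 to Col5a2 was 0.74, 0.62, 0.66 and 0.61 in fibroblast-like and 0.34 and 0.29 in P1 odontoblast-like cells. Col8a1 to Col8a2 was 2.99, 9.06, 4.35 and 9.64 in follicle-like cells and 1.12, 0.81 and 1.23 in the papilla-like cells of E15.5 maxillary, P1 maxillary and P1 mandibular. Odontoblast-like cells thus held the lower Col5a1 share of the 2 classes compared.

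**Figure D3:**
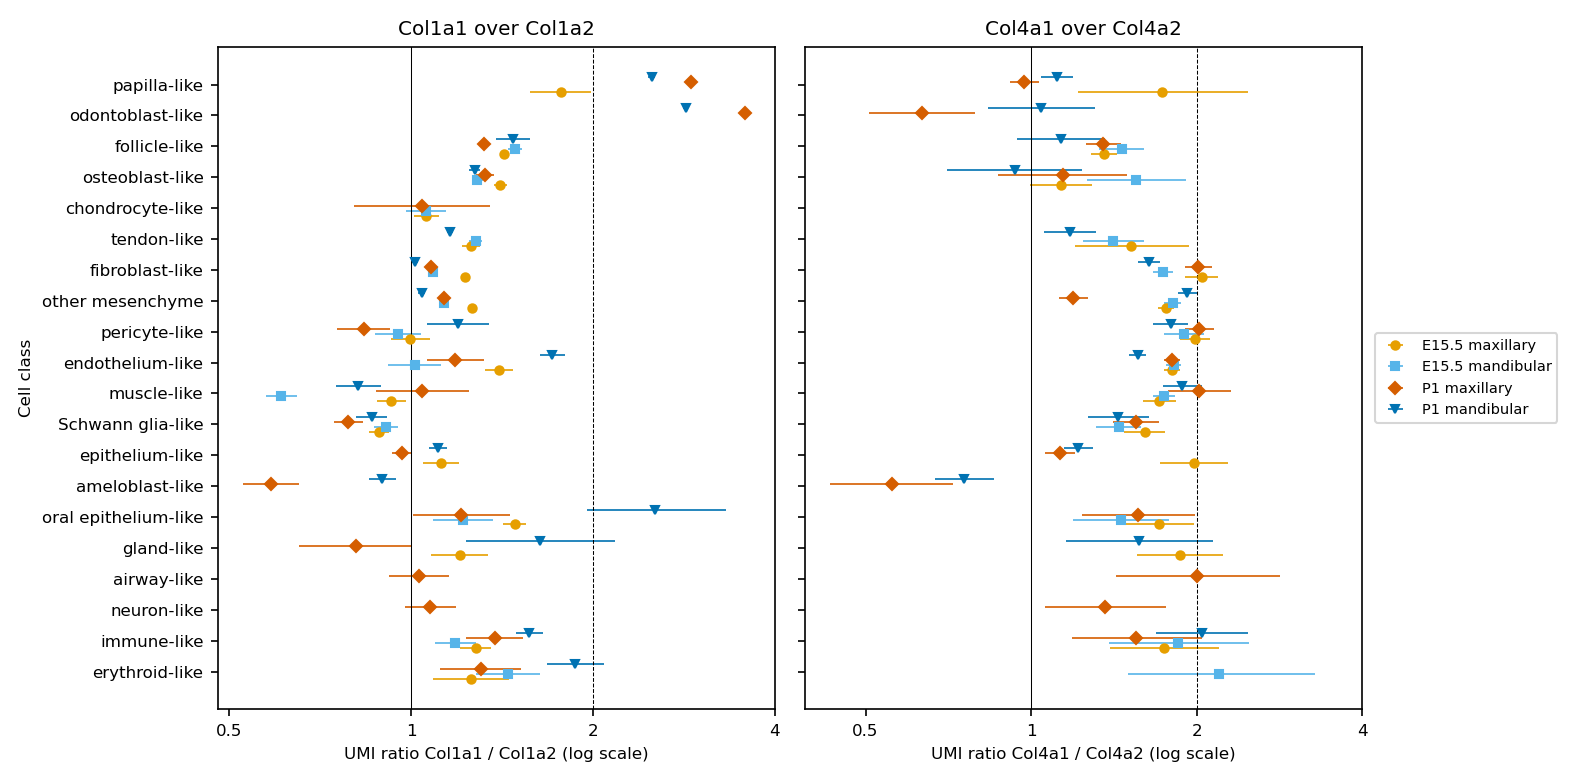
UMI ratio of Col1a1 to Col1a2 (left) and of Col4a1 to Col4a2 (right) on log axes, by cell class (y axis) and library where the pair had 100 UMIs or more, with exact 95% counting intervals. The odontoblast-like and P1 papilla-like cells (2.50 to 3.57) and the 60 oral epithelium-like cells of P1 mandibular (2.54) lie to the right of 2 in the left panel, and the ameloblast-like cells (0.56 and 0.76) and the odontoblast-like cells of P1 maxillary (0.63) to the left of 1 in the right panel. Those 60 cells held 0.109% collagen UMIs, beside 0.101% in the erythroid-like cells of P1 mandibular, and the part of free RNA in their ratio was not tested.

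Beaded filament genes encode type VI collagen, a fine network around cells. Col6a1, Col6a2 and Col6a3 were highest in fibroblast-like and other mesenchyme cells, with Col6a1 at 787, 818, 840.0 and 922 CPM, Col6a2 at 647, 637, 735 and 753 CPM and Col6a3 at 574, 558, 718 and 591 CPM in fibroblast-like cells. Muscle-like cells had little Col6a3 for their Col6a1: the ratio was 0.45, 0.23, 0.18 and 0.19, against 0.73, 0.68, 0.85 and 0.64 in fibroblast-like cells. Col6a6, a chain that can take the place of the Col6a3 chain, stood at 82.3, 127, 52.7 and 247 CPM in muscle-like cells, above their Col6a3 level of 52.4, 25.6, 15.46 and 29.0 CPM in every library. Col6a4 and Col6a5 had 299 and 248 UMIs in all libraries together and reached 10 CPM in 1 class of 1 library, Col6a5 with 14.5 CPM (21 UMIs) in the osteoblast-like cells of P1 mandibular.

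Col7a1, the single gene of anchoring fibrils, was highest in oral epithelium-like cells, at 68.1, 73.8, 99.7 and 44.5 CPM, and had 63.8, 54.1 and 66.3 CPM in the dental epithelium-like cells of E15.5 maxillary, P1 maxillary and P1 mandibular. Ameloblast-like cells had less, 26.4 and 28.4 CPM. Col17a1, a transmembrane collagen of the hemidesmosome that fixes epithelium to its basement membrane, had 249, 107, 266 and 59.7 CPM in oral epithelium-like cells and 168 (154 to 182) and 155 (147 to 163) CPM in ameloblast-like cells. Both genes thus had their highest levels in epithelial classes, but Col17a1 remained high in ameloblast-like cells where Col7a1 was low.

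The short chain genes encode nonfibrillar network collagens. Col8a1 was highest in follicle-like cells, a class named after the mesenchyme that surrounds the tooth germ, at 255, 893, 289 and 141 CPM. Oral epithelium-like cells followed another pattern, 200, 60.5, 290 and 37.5 CPM, high in both maxillary libraries. Col8a2 was flat, and its highest class, papilla-like, had 44.9, 117 and 83.6 CPM in E15.5 maxillary, P1 maxillary and P1 mandibular. Col10a1, the marker of hypertrophic cartilage, had 98 UMIs in all libraries together, and 2, 0 and 2 of them in the chondrocyte-like cells.

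The 9 FACIT genes had their highest levels in several classes. Col9a1, Col9a2 and Col9a3 encode type IX collagen, which coats cartilage fibers, and all were highest in chondrocyte-like cells: Col9a1 at 626, 844 and 1818 CPM, Col9a2 at 320.4, 418 and 1462 CPM and Col9a3 at 592, 516 and 2619.5 CPM in E15.5 maxillary, E15.5 mandibular and P1 maxillary. Outside cartilage the 3 genes parted. Ameloblast-like cells had 211 (196 to 228) and 273 (263 to 284) CPM of Col9a3 but 7.23 and 5.72 CPM of Col9a2 and 0 and 1 UMIs of Col9a1, so that the ratio of Col9a3 to Col9a2 was 29.2 (19.3 to 46.4) and 47.8 (36.4 to 64.0). P1 papilla-like cells were the reverse, with 198 and 148 CPM of Col9a2 and ratios of 0.05 and 0.07. In chondrocyte-like cells the ratio was 1.85, 1.23 and 1.79.

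Col19a1, Col20a1 and Col22a1 each had another leading class. Col19a1, known from developing muscle, was highest in muscle-like cells at 136, 269, 115 and 280 CPM, higher in both mandibular libraries, and reached 152 and 52.6 CPM in P1 papilla-like cells against 2 UMIs in those of E15.5 maxillary. Col20a1 was highest in Schwann glia-like cells at 115 (102 to 129), 224 (204 to 245), 94.95 (80.3 to 112) and 104 (86.3 to 125) CPM, 17.5-fold above the next class on average. Col22a1, known from tissue junctions, was highest in ameloblast-like cells at 198 (183 to 215) and 153 (145 to 161) CPM. Thinned ameloblast-like cells with a Col22a1 UMI were 13.7% and 15.8%, against 0.0889% and 0% of erythroid-like cells, which with 440 cells at P1 mandibular allows up to 0.682%, and 73.9% and 62.6% of ameloblast-like cells had one without thinning.

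The remaining FACIT genes, Col12a1, Col14a1 and Col16a1, had their highest means in osteoblast-like or tendon-like cells. Col12a1 was highest in osteoblast-like cells at 702, 737, 1113 and 982 CPM, with chondrocyte-like and tendon-like cells close behind, and stood at 132, 654 and 617 CPM in the papilla-like cells of E15.5 maxillary, P1 maxillary and P1 mandibular. Col14a1 stood at 620.1, 238 and 2058 CPM in the tendon-like cells of E15.5 maxillary, E15.5 mandibular and P1 mandibular and at 658, 679.8, 641 and 902 CPM in fibroblast-like cells. Col16a1 had 191, 128 and 478 CPM in tendon-like cells.

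Of the transmembrane genes, Col23a1 and Col25a1 were high in papilla-like cells. Col23a1 stood at 280.1, 598 and 601 CPM in the papilla-like cells of E15.5 maxillary, P1 maxillary and P1 mandibular and at 677 and 400.5 CPM in P1 odontoblast-like cells. The unshared cells of P1 maxillary had 699 CPM in the papilla-like and 259 CPM in the odontoblast-like class. Col25a1, a collagen known from motor nerve contact with muscle, had 97.9, 488 and 242 CPM in the same papilla-like cells, with 330.3 CPM in the unshared cells of P1 maxillary, but 35.6 and 24.5 CPM in P1 odontoblast-like cells. Tendon-like cells had 180.4, 170.0 and 217 CPM of Col25a1 in E15.5 maxillary, E15.5 mandibular and P1 mandibular. Col13a1, found at cell contacts, had its highest mean in osteoblast-like cells, at 31.6, 159.7 and 329 CPM in E15.5 maxillary, E15.5 mandibular and P1 mandibular, with 83.0 CPM in P1 maxillary, but in E15.5 maxillary chondrocyte-like, papilla-like and tendon-like cells were higher, at 133, 92.5 and 82.7 CPM. The transmembrane group made up 8.09%, 14.4% and 10.3% of the collagen UMIs of papilla-like cells in E15.5 maxillary, P1 maxillary and P1 mandibular, but 0.90%, 0.30%, 1.32% and 0.39% of those of fibroblast-like cells.

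The multiplexin genes, Col15a1 and Col18a1, encode basement membrane proteins of vessels and epithelium. Col15a1 had 370.0, 499, 317 and 351 CPM and Col18a1 397, 459, 353 and 308 CPM in endothelium-like cells, the highest class of both. Col18a1 was also high in Schwann glia-like cells at 255, 277, 314 and 291 CPM, where Col15a1 had 81.0, 87.2, 84.7 and 91.0 CPM. Of the other 2 genes, Col28a1, a collagen of peripheral nerve, had its highest level in Schwann glia-like cells, and Col26a1 in papilla-like cells of E15.5 maxillary at 562 CPM (509 to 618), against 62.8 and 75.0 CPM in those of P1 maxillary and P1 mandibular. The 98 unshared papilla-like cells of P1 maxillary gave 151 CPM of Col26a1.

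The change from E15.5 to P1, when dentin and enamel matrix are laid down, was read within classes with at least 50 cells in every library and for genes with a mean of 10 CPM or more. A gene was counted where it differed at least 2-fold in the same direction in both jaws. In the mesenchyme-like classes together, 8 of 35 collagens were higher at P1, against 4.25% of the 9651 genes tested, and 0 were lower, against 1.79%. The median log2 ratio of the collagens was -0.61 in the maxillary and -0.29 in the mandibular jaw, against -0.02 and -0.03 for all genes. These medians became 0.03 and -0.33 without the shared barcodes, against -0.04 and -0.03 for all genes. Without the shared barcodes, 1 of 33 collagens was higher, Col9a2, against 0.54% of the 9622 genes then tested, and 0 were lower, against 0.177%. Col4a6 then stayed past 2-fold in both jaws but was below the mean of 10 CPM. Papilla-like cells made up 76 of 5868 mesenchyme-like cells in E15.5 maxillary and 3211 of 9739 in P1 maxillary, no papilla-like cluster was found in E15.5 mandibular against 2425 of 5240 cells in P1 mandibular, and odontoblast-like cells were found at P1 only. The make-up of the pool and the stage cannot be told apart in these counts.

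The 5 collagens with the largest smaller change were Col19a1, Col24a1, Col4a6, Col23a1 and Col9a2. Col19a1 went from 5.06 to 95.6 CPM in the maxillary (log2 ratio 4.24, interval 4.08 to 4.41) and from 2.86 to 27.6 CPM in the mandibular jaw (3.27, 3.02 to 3.54), but had a log2 ratio of -0.08 in the maxillary jaw without the shared barcodes. Col24a1 went from 58.4 to 364.5 CPM (2.64) and from 64.6 to 397 CPM (2.62), with 0.46 in the maxillary jaw without the shared barcodes. Col4a6 went from 3.71 to 22.7 CPM (2.61) and from 2.53 to 17.3 CPM (2.77), with 1.14 without them. Col23a1 went from 141 to 459 CPM (1.70) and from 42.9 to 372 CPM (3.11), with 0.35 without them, and Col9a2 went from 37.7 to 136 CPM (1.85) and from 27.4 to 85.5 CPM (1.64), with 1.59 without them. Col25a1, Col4a5 and Col11a2 were the other 3.

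Within papilla-like cells alone, E15.5 maxillary and P1 maxillary could be set side by side, with only 76 cells at E15.5. Col24a1 went from 2.72 to 203 CPM, Col19a1 from 2.72 to 152 CPM and Col9a2 from 6.80 to 198 CPM. Col23a1 went from 280.1 to 598 CPM and Col26a1 from 562 to 62.8 CPM. The 98 unshared P1 maxillary cells gave 183 CPM of Col24a1, 109 CPM of Col19a1, 98.4 CPM of Col9a2, 699 CPM of Col23a1 and 151 CPM of Col26a1. The direction of each gene was the same with and without the shared barcodes.

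In dental and oral epithelium-like cells, 4 of 27 collagens were higher at P1, against 5% of the 9517 genes tested, and 4 were lower, against 3.9%. Many more were lower with each cell named by its own markers or with erythroid-like CPM subtracted, as given under the processing. The 142 epithelial cells of E15.5 mandibular were all oral epithelium-like, against 60 of 2356 in P1 mandibular. In the maxillary jaw 551 of 913 cells were oral epithelium-like at E15.5 and 303 of 2291 at P1, when 241 more were ameloblast-like. In both jaws stage and epithelial type cannot be told apart in these counts. Col22a1 went from 0.368 to 157 CPM in the maxillary (log2 ratio 8.73, 7.51 to 10.36) and from 1.47 to 103 CPM in the mandibular jaw (6.13, 4.77 to 8.01), on 5 and 4 UMIs at E15.5. Col27a1 went from 35.4 to 359.5 CPM (3.34, 3.21 to 3.48) and from 70.8 to 418 CPM (2.56, 2.36 to 2.78). Both genes were led by ameloblast-like cells, which were found at P1 only, but they were also higher in the dental epithelium-like class of the maxillary jaw, Col22a1 with 0.921 and 172 CPM and Col27a1 with 78.2 and 321 CPM. Without the shared barcodes the maxillary log2 ratios were 7.37 and 1.93.

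Col9a3 went from 16.7 to 83.4 CPM (log2 ratio 2.32) and from 49.9 to 161 CPM (1.69). Col24a1 went from 4.94 to 24.9 CPM (2.34) and from 3.67 to 28.5 CPM (2.96), but erythroid-like cells of P1 mandibular had 25.97 CPM of Col24a1 and those of P1 maxillary 4.63 CPM, so the mandibular level was close to that of free RNA. The 4 lower genes were Col4a6 (log2 ratios -2.65 and -2.32), Col4a5 (-2.40 and -1.93), Col8a1 (-1.91 and -2.22) and Col16a1 (-1.51 and -1.34). Within oral epithelium-like cells, clustered separately in each library, the log2 ratios were 0.07 and 0.60 for Col4a6, 0.12 and 0.50 for Col4a5, 0.53 and -0.69 for Col8a1, and -0.49 and -2.33 for Col16a1. Without the shared barcodes, the 4 higher genes remained, against 2.33% of all genes, and Col4a6 was the 1 lower gene, against 0.98%, with a maxillary log2 ratio of -1.02. Col4a5 then had -0.83, Col8a1 -0.73 and Col16a1 -0.32.

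**Figure D4:**
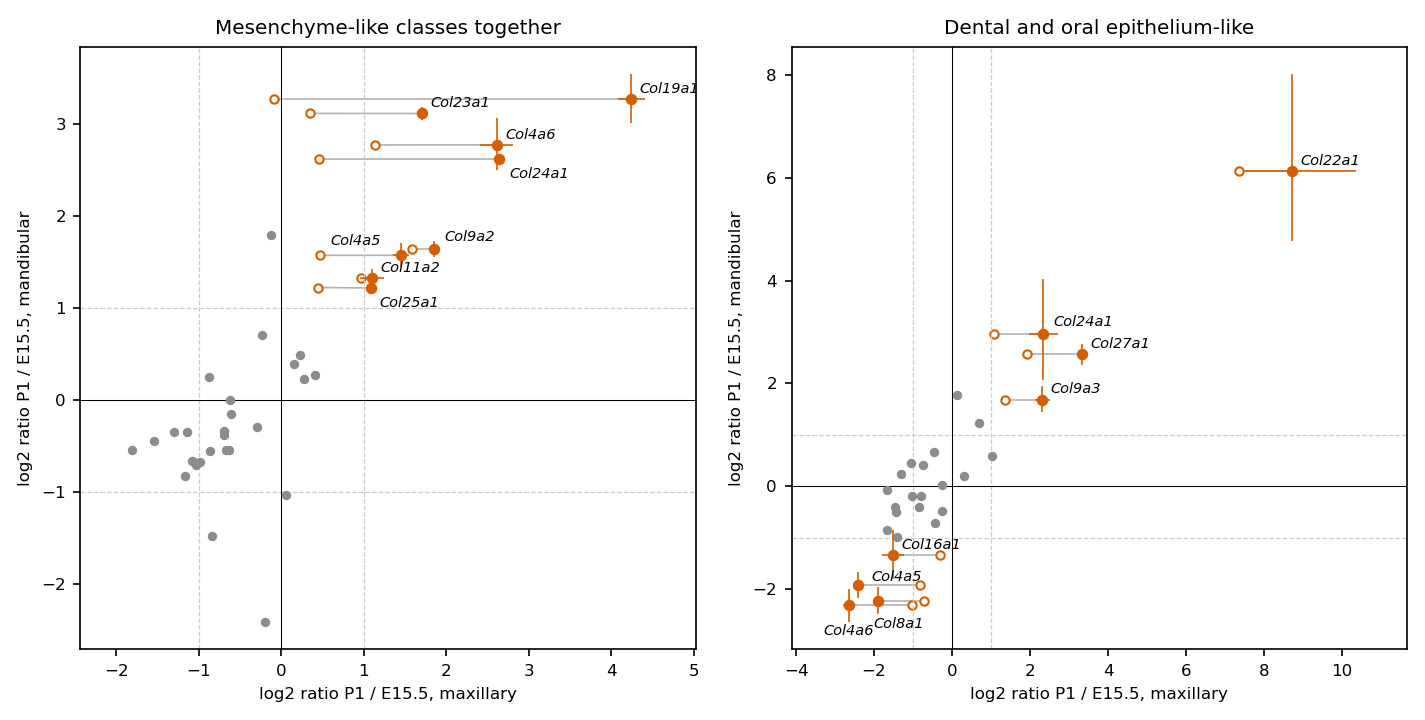
Log2 ratio of CPM at P1 to E15.5 for each collagen in the maxillary (x axis) and mandibular (y axis) jaw, in mesenchyme-like (left) and dental and oral epithelium-like cells (right). Orange points passed 2-fold in the same direction in both jaws (dashed lines) and carry 95% counting intervals, grey points did not, and open circles give the maxillary ratio without the shared barcodes, where Col19a1 moved from 4.24 to -0.08.

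Single cell types gave few changes. In Schwann glia-like cells 2 of 31 collagens were higher at P1, against 0.639% of all genes: Col28a1 went from 25.9 to 169 CPM (log2 ratio 2.71, 2.31 to 3.12) in the maxillary and from 12.6 to 119 CPM (3.24, 2.63 to 3.89) in the mandibular jaw, and Col23a1 from 39.8 to 99.4 CPM (1.32) and from 16.3 to 62.1 CPM (1.93). Shared barcodes made up 8.75% of the P1 maxillary Schwann glia-like cells, and without them the maxillary ratios were 2.32 and 1.29, with 0.457% of all genes then counted as higher. Thinned Schwann glia-like cells with a Col28a1 UMI went from 2.31% and 0.80% at E15.5 to 12.8% and 11.1% at P1, in the order maxillary and mandibular. Before thinning these shares were 18.1%, 13.6%, 23.6% and 43.4%, with median depths of 10905.5, 15071, 2584 and 9024 UMIs, and no erythroid-like cell had one after thinning. Col28a1 was thus higher at P1 in both jaws by level and by both shares.

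In follicle-like cells 2 of 25 were higher, against 1.61% higher and 0.692% lower of all genes: Col18a1 went from 5.51 to 27.05 CPM (log2 ratio 2.30) and from 13.8 to 53.3 CPM (1.95), and Col9a2 from 27.5 to 57.1 CPM (1.05) and from 16.6 to 46.0 CPM (1.47), and both stayed past 2-fold without the shared barcodes, against 0.32% of all genes. The maxillary ratio of Col18a1 turned to -0.18 at a clustering resolution of 0.5 and to -0.40 with each cell named by its own markers. In pericyte-like cells 3 of 26 were higher, against 1.91%. These were Col28a1 (1.56, 0.45 to 2.79, and 3.61, 1.56 to 6.75, on 10 and 2 UMIs at E15.5), Col18a1 (1.58 and 1.49) and Col5a3 (1.05 and 2.64). With each cell named by its own markers the maxillary ratios of Col18a1 and Col5a3 turned to -0.49 and -0.91. Without the shared barcodes Col28a1 alone was counted, at 1.34 in the maxillary jaw, against 1.17% of all genes. Endothelium-like cells had 1 of 23, Col13a1 (1.07 and 1.06), against 1.27% higher and 0.272% lower, and muscle-like cells 1 of 25, Col24a1 (1.78 and 2.62), against 1.71% higher and 0.357% lower. Neither was counted without the shared barcodes, against 0.327% and 1.15% of all genes, and Col24a1 in the muscle-like cells of P1 mandibular, at 16.2 CPM, was below the erythroid-like level of 25.97 CPM. Fibroblast-like cells had 0 of 27, against 1.35% higher and 3.24% lower, and 1 of 28 higher without the shared barcodes, Col13a1, against 0.3%.

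The limit of separate clusters is repeated here for 4 classes. Osteoblast-like cells had 5 of 30 collagens higher at P1, against 0.682%, and other mesenchyme 0 of 31, against 0.792%. Immune-like cells had 2 of 21, against 1.33% higher and 0.332% lower. Oral epithelium-like cells had 5 of 25 lower, against 1.09%, and 0 higher, against 0.826%. Shared barcodes were 40.3% of the oral epithelium-like cells of P1 maxillary, and without them 2 of 25 were lower there, Col3a1 and Col1a2, against 0.68%. Immune-like cells then had 1 of 21 higher, Col23a1, against 0.702%, osteoblast-like cells 5 of 32, against 0.597%, and other mesenchyme 0 of 30, against 0.309%. The oral epithelium-like cells of P1 mandibular held 0.109% collagen UMIs, beside 0.101% in erythroid-like cells there. Their Col3a1 level was 42.1 CPM, below the 199 CPM of those erythroid-like cells. The part of free RNA in the oral epithelium-like counts was not tested.

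The jaws were compared in the same way, with a gene counted where maxillary and mandibular cells differed at least 2-fold in the same direction at both stages. In the mesenchyme-like classes, 1 of 35 collagens was higher in the maxillary jaw, against 0.746% of all genes, and 4 were lower, against 0.684%. Fibroblast-like cells were 564 of 5868 maxillary and 831 of 3186 mandibular mesenchyme-like cells at E15.5, and 358 tendon-like cells were found in P1 mandibular with no such cluster in P1 maxillary, so the make-up of the pool and the jaw cannot be told apart. Col25a1 was higher, at 153 against 63.9 CPM at E15.5 (log2 ratio 1.26) and 325 against 149 CPM at P1 (1.13), but at 0.49 at P1 without the shared barcodes, when Col26a1 was the 1 of 33 collagens higher (1.07 and 1.15), against 1.28% of all genes. Col5a3 was lower, at 42.0 against 114 CPM (-1.44) and 14.5 against 83.7 CPM (-2.53), and so were Col18a1 (-1.42 and -1.81), Col11a2 (-1.34 and -1.56) and Col6a6 (-1.13 and -2.39). Col5a3, Col11a2 and Col6a6 stayed lower by 2-fold without the shared barcodes, with -2.50, -1.69 and -1.68 at P1, and Col18a1 had -0.77 and was not counted, against 0.686% of all genes lower.

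Single classes placed Col25a1 and Col26a1 on the maxillary side. In muscle-like cells Col25a1 was 171 against 10.7 CPM at E15.5 (log2 ratio 3.99, 3.72 to 4.27) and 193 against 31.5 CPM at P1 (2.61, 2.29 to 2.95), and still 2.40 at P1 without the shared barcodes. Col23a1 was the other gene of 25 counted there (1.74 and 1.16), against 1.31% of all genes higher and 0.104% lower. With the shared barcodes left out, Col23a1 had 0.35 at P1 and was not counted, and Col19a1 was lower in the maxillary jaw, with -1.70 at P1. The counts were then 1 of 24 higher, against 1.06% of all genes, and 1 lower, against 0.116%. In fibroblast-like cells Col26a1 was 141 against 37.2 CPM (1.92, 1.76 to 2.07) and 97.3 against 20.9 CPM (2.22, 1.99 to 2.46), with 3.39 at P1 without the shared barcodes, and Col25a1 was 122 against 42.6 CPM (1.51) and 179 against 66.5 CPM (1.43), with 0.56. These were 2 of 27 collagens, against 0.793%, and 0 were lower, against 0.439%. Without the shared barcodes 3 of 28 were higher, Col25a1 not among them, against 0.686%, and 0 were lower, against 0.515%. Col26a1 was also the single gene higher in the maxillary jaw in Schwann glia-like cells (1.20 and 1.69, 1 of 31 against 0.511%, and 1.69 at P1 also without the shared barcodes) and in pericyte-like cells (1.11 and 1.59, 1 of 26 against 0.278%), where Col24a1 (-1.89 and -2.02) and Col15a1 (-1.48 and -2.26) were lower, against 0.704%. In the pericyte-like cells without the shared barcodes, 2 of 26 were higher, against 0.535% of all genes, and 1 was lower, against 0.803%. Col24a1 then had -0.86 at P1 and was not counted, and Col15a1 had -2.15. Col26a1 had 2.68 at P1 without the shared barcodes and -0.25 in the shared barcodes alone.

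In dental and oral epithelium-like cells 3 of 27 collagens were higher in the maxillary jaw, against 0.273% of all genes, and 0 were lower, against 0.2%. Col4a6 was 127 against 44.8 CPM at E15.5 (log2 ratio 1.51) and 20.3 against 8.99 CPM at P1 (1.17). Col8a1 was 162 against 60.5 CPM (1.42) and 43.1 against 12.97 CPM (1.73), and Col25a1 41.7 against 15.05 CPM (1.47) and 35.2 against 15.2 CPM (1.21). All 3 stayed higher by 2-fold without the shared barcodes, when Col14a1 and Col4a5 were higher too (5 of 27) and Col9a3 was lower (1 of 27), each against 0.854% of all genes. Of the 2291 epithelial cells of P1 maxillary 303 were oral epithelium-like, against 60 of 2356 in P1 mandibular, and E15.5 mandibular had oral epithelium-like cells only. Follicle-like and endothelium-like cells had no collagen past 2-fold at both stages, against 0.836% and 0.185% of all genes higher and 0.485% and 0.381% lower. With the shared barcodes left out, follicle-like cells had Col2a1 higher and Col18a1 lower of 28 (1.08% and 0.61% of all genes), and endothelium-like cells had Col26a1 higher of 22 (0.306%). The limit of separate clusters is repeated for the classes that follow. Osteoblast-like cells had 2 of 30 higher and 5 lower (2% and 2.47% of all genes), other mesenchyme 5 of 31 higher and 2 lower (3.24% and 1.16%), oral epithelium-like cells 6 of 25 higher (1.03%) and immune-like cells 0 of 21 (0.0886%). These counts were 2 of 32 higher and 5 lower (2.03% and 2.07%), 4 of 30 higher and 2 lower (2.65% and 1.18%) and, for immune-like cells, 0 of 21 (0.356%) without the shared barcodes, and those of oral epithelium-like cells did not change. The part of free RNA in the oral epithelium-like counts was not tested here either.

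Collagen chains need enzymes and chaperones to fold, proteases to trim them and oxidases to cross-link them. A list of 51 such genes held 22 chaperones and modifying enzymes, 12 processing and cross-linking genes, 7 collagen-binding matrix genes and 10 receptors. In mesenchyme-like cells 46 were tested, 5 were higher at P1, against 4.25% of all genes, and 1 was lower, against 1.79%. Omd and Lum, the second also among the markers that named mesenchyme, encode small proteoglycans that bind collagen fibers. They went from 119.6 to 396.5 CPM (log2 ratio 1.73) and from 615 to 1371 CPM (1.16) in the maxillary jaw and from 42.5 to 386 CPM (3.18) and from 402 to 1475 CPM (1.87) in the mandibular jaw. Pcolce2, an enhancer of procollagen trimming, had 1.36 and 1.65, Adamts3, a procollagen protease, 1.26 and 1.34, and the collagen receptor subunit Itga11 1.09 and 1.13. Colgalt2, a collagen galactosyltransferase, was lower (-1.40 and -1.19). Without the shared barcodes none of the 6 was counted, with 0 of 45 higher and 0 lower, against 0.54% and 0.177% of all genes. Within single classes, 0 of 42 machinery genes were higher in follicle-like cells (1.61% of all genes), 1 of 41 in fibroblast-like cells (1.35%), 0 of 43 in other mesenchyme (0.792%), 3 of 46 in osteoblast-like cells (0.682%) and 3 of 44 in pericyte-like cells (1.91%). The make-up of the mesenchyme-like cells and the stage cannot be told apart here either.

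In dental and oral epithelium-like cells 39 machinery genes were tested, 8 were higher at P1, against 5% of all genes, and 3 were lower, against 3.9%. Plod2, a lysyl hydroxylase that prepares collagen for cross-linking, went from 51.4 to 252 CPM (log2 ratio 2.29) and from 66.1 to 582 CPM (3.14), with 0.52 in the maxillary jaw without the shared barcodes. The receptor subunits Itga1 (2.78 and 1.41) and Itga2 (2.61 and 1.50) were higher. They were the 2 of 37 genes counted without the shared barcodes, against 2.33% of all genes, at 1.77 and 1.32 in the maxillary jaw. Pcolce2 (3.73 and 2.92) and Itga11 (1.39 and 3.39) were also counted, but in the maxillary jaw without the shared barcodes Itga11 had -0.25 and Pcolce2 1.73, at a mean below 10 CPM. The make-up of the epithelial cells and the stage cannot be told apart here either. The lower genes were P4ha1 (-1.28 and -1.21) and P3h2 (-1.13 and -1.48), which hydroxylate prolines, and the lysyl oxidase relative Loxl1 (-1.41 and -1.10). None of these 3 was counted without the shared barcodes, against 0.98% of all genes lower.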

How the data were processed

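Cells of mouse molar tooth organs were profiled with 10x Genomics 3′ v3.1 chemistry, 1 library each for E15.5 maxillary, E15.5 mandibular, P1 maxillary and P1 mandibular. The UMI counts deposited by the authors are raw whole numbers per gene and barcode, made with Cell Ranger 7.0.1 on mm10. The cell filters and doublet calls that the study applied later are not part of these matrices.

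Barcodes with 1000 UMIs or more were kept, and barcodes also listed in P1 maxillary were left out of P1 mandibular. Counts were normalized per cell and log-transformed, 2000 variable genes (no collagen among them), 40 principal components and 15 neighbours were used for Leiden clustering at resolution 1.0 (scanpy 1.11.5, leidenalg 0.10.2, Python 3.11.15). Each library was clustered on its own. Clusters were named from 23 marker lists without collagens, and the naming thresholds were set after the clusters were seen. The members and lists were chosen with earlier results of these data known. No doublets were removed in the reported values. Removing the highest Scrublet scores was an alternative.

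UMIs were summed per class and library and given as CPM of all UMIs of that class, with exact Poisson intervals, and shares and ratios with exact binomial (Clopper-Pearson) intervals, all at 95% (scipy 1.17.1). A count of 0 allows up to 3 counts. For detection, each cell was thinned to 1000 UMIs. Contrasts needed 50 cells in each library and a mean of 10 CPM, and a gene was counted at 2-fold or more in the same direction in both jaws or both stages. Genes described in full were the 3 highest collagens of a class, the 5 with the largest ratio of the highest to the second class, chain pairs of 1 trimer, and up to 5 counted genes per direction. With 1 library per group no test was made. Code was tested on simulated data. Alternatives covered the shared barcodes, cell filters, doublets, clustering, class naming, level minimum, fold, denominator, free RNA, thinning and TMM factors (edgeR 4.0.16, R 4.3.3).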

Additional observations from a re-analysis of the deposited data

Results flagged for a closer look

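For 10 pairs of collagen and class, the level went up at least 2-fold from E15.5 to P1 in one jaw and down at least 2-fold in the other, and this difference was not tested. In endothelium-like cells the log2 ratio of P1 to E15.5 was -2.07 in the maxillary and 2.96 in the mandibular jaw for Col1a1, -1.83 and 2.20 for Col1a2, -1.78 and 1.26 for Col3a1, -1.35 and 1.05 for Col6a1, and -1.53 and 2.46 for Col14a1. Endothelium-like cells had 636, 161, 151 and 1257 CPM of Col1a1 in E15.5 maxillary, E15.5 mandibular, P1 maxillary and P1 mandibular, beside 65.8, 53.9, 128 and 337 CPM in erythroid-like cells, and the part of free RNA was not tested.

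In other mesenchyme the ratios were -1.85 and 1.36 for Col15a1, -2.52 and 1.11 for Col5a3, and -3.44 and 1.14 for Col6a6. Col5a3 in osteoblast-like cells had -3.25 and 2.02, and Col4a5 in pericyte-like cells -1.22 and 1.82. Each library was clustered on its own, so stage and cluster cannot be told apart in these values.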

How the results depend on the processing

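No paired analysis was possible because the results come from no test, with 1 library per group, and no replicate could be left out. The mean collagen share of mesenchyme-like cells, 1.64%, was 1.69% with shared barcodes dropped from both P1 libraries, 1.60% with them kept in both, 1.63% with collagens allowed in the clustering, 1.70% with each cell named by its own markers and 1.63% with P1 maxillary reduced to its shared barcodes, an alternative chosen after seeing the data. In thinned mesenchyme-like cells the share of cells with a collagen UMI, 99.8%, was 99.97% at 2000 UMIs and 99.9958% without thinning. The 12 collagens at 100 CPM or more in mesenchyme stayed 12 under each alternative run.

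Shared barcodes moved several counts. Dropped from both P1 libraries, they left 1 collagen higher at P1 in mesenchyme (8 before), 1 lower in epithelium (4), 5 higher (3) and 1 lower (0) in the maxillary epithelium, and, of the machinery genes, 0 higher (5) and 0 lower (1) in mesenchyme and 2 higher (8) and 0 lower (3) in epithelium. Kept in both, they gave 0 (1) and 1 (3) collagens higher in the maxillary mesenchyme and epithelium. P1 maxillary reduced to them gave 3 (0) lower at P1 in mesenchyme. With the highest Scrublet scores removed, 2 (1) were higher in the maxillary mesenchyme. With each cell named by its own markers, 14 (4) were lower at P1 and 2 (0) lower in the maxillary jaw in epithelium. A minimum of 50 CPM gave 4 (8) higher at P1 and 2 (4) lower in the maxillary jaw in mesenchyme, and 2 (5), 0 (1), 4 (8) and 1 (3) machinery genes. No minimum gave 1 (0) lower in mesenchyme, 7 (4) higher in epithelium and 6 (3) machinery genes lower in epithelium. At 1.5-fold, 6 (0) were lower at P1 and 2 (1) higher in the maxillary jaw in mesenchyme, 1 (0) lower in the maxillary epithelium, and 3 (1) machinery genes lower in mesenchyme. Erythroid-like CPM subtracted gave 10 (4) lower at P1 and 7 (3) higher in the maxillary jaw in epithelium. Other minimums change which genes are tested and a lower fold counts more of them, both by construction, and for the other settings the cause was not tested. The counts in this paragraph are given without the share of all genes and are not set against it.

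Of 52 named values, 24 were still counted in the same direction with shared barcodes dropped. Another 22 kept their direction but fell below 2-fold or below the mean of 10 CPM, and 6 changed sign. Those 6, as log2 ratios, were Col19a1 (-0.083) and Colgalt2 (0.0079) in mesenchyme, Itga11 in epithelium (-0.25), Col13a1 in endothelium (-0.30), Col24a1 in muscle (-0.012) and Col5a3 in pericytes (-0.19). Col18a1 in the follicle changed sign at resolution 0.5 (-0.18) and with own markers (-0.40), which also turned Col18a1 (-0.49) and Col5a3 (-0.91) in pericytes. The jaw ratio of Col26a1 in pericytes was -0.25 in shared barcodes only, and subtracting erythroid-like CPM turned Col24a1 in epithelium (-0.27) and muscle (-1.14). Under TMM factors 50 of the 52 were still counted in the same direction, and with 2000 UMIs per barcode all 52 were. The number was 44 with the highest Scrublet scores removed and 42 with each cell named by its own markers. It was 47 with shared barcodes kept in both P1 libraries and 46 with erythroid-like CPM subtracted. A minimum of 50 CPM left 28 counted. Depth limits the rarest members: Col10a1 had 98 UMIs and Col4a3 158 in all libraries.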

Other observations

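At P1, Col28a1 had 18.9 and 14.1 CPM in the ameloblast-like cells of P1 maxillary and P1 mandibular, against 169 and 119 CPM in Schwann glia-like cells.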
